A study of Mus musculus with 12 samples.

Results

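A set of 9 chemokine genes other than the ligands of the receptor Cxcr3 were examined in IEC4.1 cells, a cell line derived from the intestinal epithelium of newborn mice. The genes were Ccl2, Ccl5, Ccl7, Ccl17, Ccl20, Cxcl1, Cxcl5, Cxcl16 and Cx3cl1, found by their symbols as 9 of the 15002 genes in the deposited tables. RNA-seq was available for 12 libraries in 4 groups of 3 biological replicates. The siR_Ctrl group received a scrambled siRNA, and the siR_Ctrl + IFN-γ group received the same siRNA and interferon-γ. The siR_Nostrill group was treated with 3 pooled siRNAs that target the lncRNA Nostrill, and the siR_Nostrill + IFN-γ group received that pool and interferon-γ. According to the text of the study, siRNA was used at 120 nM for 24 h and IFN-γ at 1 ng/ml for 4 h, whereas the labels give 24 h for every library. All groups are the same cell line, so the replicates describe cultures of a single line. Nostrill itself was not analysed here, and the labels of the knockdown groups could therefore not be checked on the targeted gene.

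Chemokines are small secreted proteins that guide leukocytes along a concentration gradient by binding G-protein-coupled receptors. They are sorted by the spacing of their first cysteines into the CC, CXC and CX3C classes, and several are transcribed after activation of NF-κB or in response to interferons. In the gut, epithelial chemokines recruit monocytes, T cells, dendritic cells and neutrophils to the site of infection. IFN-γ raised 4 of the 8 testable members in siR_Ctrl cells, where 4.71% of all genes tested were called higher, and 2 of the 8, Cx3cl1 and Ccl2, in siR_Nostrill cells, where 5.24% were. Once a dependence on gene length was removed from each library, the counts were 7 and 8, against 8.13% and 11.2% of genes, so that their order between the siRNAs depended on the fit. Ccl5 was the member that differed most between siR_Nostrill and siR_Ctrl.

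Each library held between 17824306 and 19093204 reads on genes. Exposure to IFN-γ was visible with both siRNAs, since all 5 genes of a list of its classical targets (Irf1, Stat2, Irf9, Gbp2 and Socs1) rose, with a median log2 fold change of 3.18 in siR_Ctrl cells and 2.91 in siR_Nostrill cells. Markers of the labelled cell type were sparse. Of 12 epithelial markers, 8 had a row in the tables and only Krt19 and Tjp1 reached a mean of 1 FPKM, a level scaled to transcript length and library size, while Krt8, Krt18, Vil1, Cdx1, Cdx2 and Lgals4 stayed at or below 0.46 FPKM in every library. Of 9 fibroblast markers, 7 reached 1 FPKM, with Vim between 1536 and 2056 FPKM and Col1a1 between 176 and 315 FPKM. Their summed level was 2044 to 2283 FPKM in siR_Ctrl, 2436 to 2550 in siR_Ctrl + IFN-γ, 2002 to 2205 in siR_Nostrill and 2151 to 2277 in siR_Nostrill + IFN-γ. The summed epithelial markers ranged from 9.89 to 17.8, 7.51 to 14.9, 8.35 to 10.8 and 10.2 to 13.6 FPKM in the same order. Of 14 leukocyte markers only Cd68 reached 1 FPKM, Ptprc was at most 0.01 FPKM, and the list summed to 2.91 FPKM at most. The part of these markers in the chemokine results was not tested. In bulk RNA, fewer cells of a kind and less RNA per cell cannot be told apart.

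The libraries also differed by gene length, which bears on this gene set because most of its transcripts are short. The effective length was 296 nt for Ccl5, 308 for Ccl17, 565 for Ccl7, 570 for Ccl2, 719 for Cxcl1, 1257 for Cxcl16, 1406 for Cxcl5 and 2908 for Cx3cl1, against a median of 2604 nt over the genes tested. Only 0.957% of those genes were shorter than Ccl5. A smooth curve of expression against length, fitted in each library, put siR_Ctrl replicate 1 at -0.78 and siR_Ctrl + IFN-γ replicate 2 at 0.57 on the log2 scale at the length of Ccl5. At the length of Cx3cl1 all 12 libraries lay between -0.04 and 0.06. Each comparison was therefore fitted on the counts as deposited, which gives the main values, and again with this length trend removed.

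**Figure D1:**
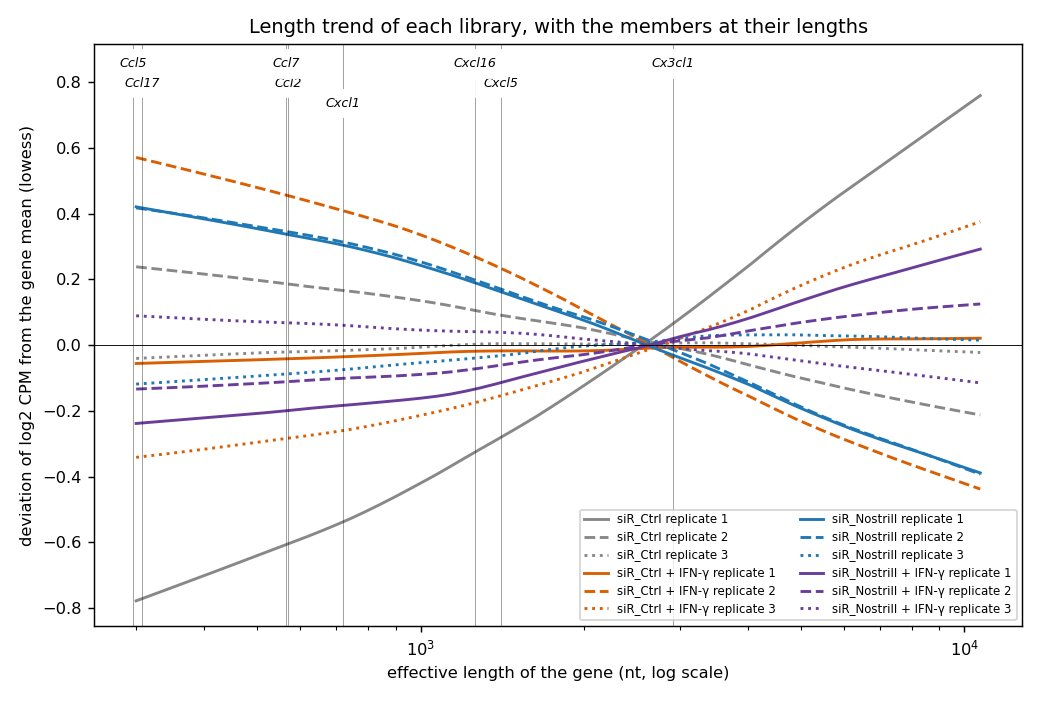
Deviation of each library from the gene mean (log2 CPM, lowess curve, y axis) against effective gene length (nt, log scale, x axis), with 1 curve for each of the 12 libraries and thin vertical lines at the lengths of the 8 members tested. At the short end siR_Ctrl replicate 1 lies lowest and siR_Ctrl + IFN-γ replicate 2 highest, and the curves meet near the length of Cx3cl1.

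On the FPKM scale, which adjusts for length but not for the length trend above, Ccl2 was the most abundant member in every group. In siR_Ctrl cells it reached 369 ± 56.2 FPKM (SD, n = 3), followed by Ccl7 at 155 ± 39.1, Cxcl5 at 121 ± 9.72, Cxcl1 at 110.4 ± 17.9, Ccl5 at 73.7 ± 16.2 and Cx3cl1 at 42.0 ± 4.12. Cxcl16 at 5.69 ± 0.635 and Ccl17 at 2.29 ± 1.09 FPKM were low, and Ccl20 at 0.197 ± 0.195 was at the limit of detection. The ranges of Ccl7, Cxcl5 and Cxcl1 overlapped between neighbours in this order, and the other neighbours lay apart. An order that mixes short and long genes is subject to the length trend. With IFN-γ the order in siR_Ctrl cells became Ccl2, Ccl7, Cxcl1, Ccl5, Cxcl5 and Cx3cl1, and the ranges from Cxcl1 to Cx3cl1 overlapped from each to the next. In siR_Nostrill cells Ccl5 stood in the third place with and without IFN-γ, apart from its neighbours in both states. Summed over the 9 genes, the level was 738 to 952 FPKM in siR_Ctrl, 1352 to 1657 in siR_Ctrl + IFN-γ, 1000.2 to 1196 in siR_Nostrill and 1858 to 1956 in siR_Nostrill + IFN-γ, so that the 4 groups did not overlap in this sum. The total FPKM of a library differed, however, from 570935 to 794809. As a share of that total siR_Ctrl and siR_Nostrill overlapped, since siR_Ctrl replicate 3 (950 of 692674) lay above siR_Nostrill replicate 2 (1042 of 784574).

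**Figure D2:**
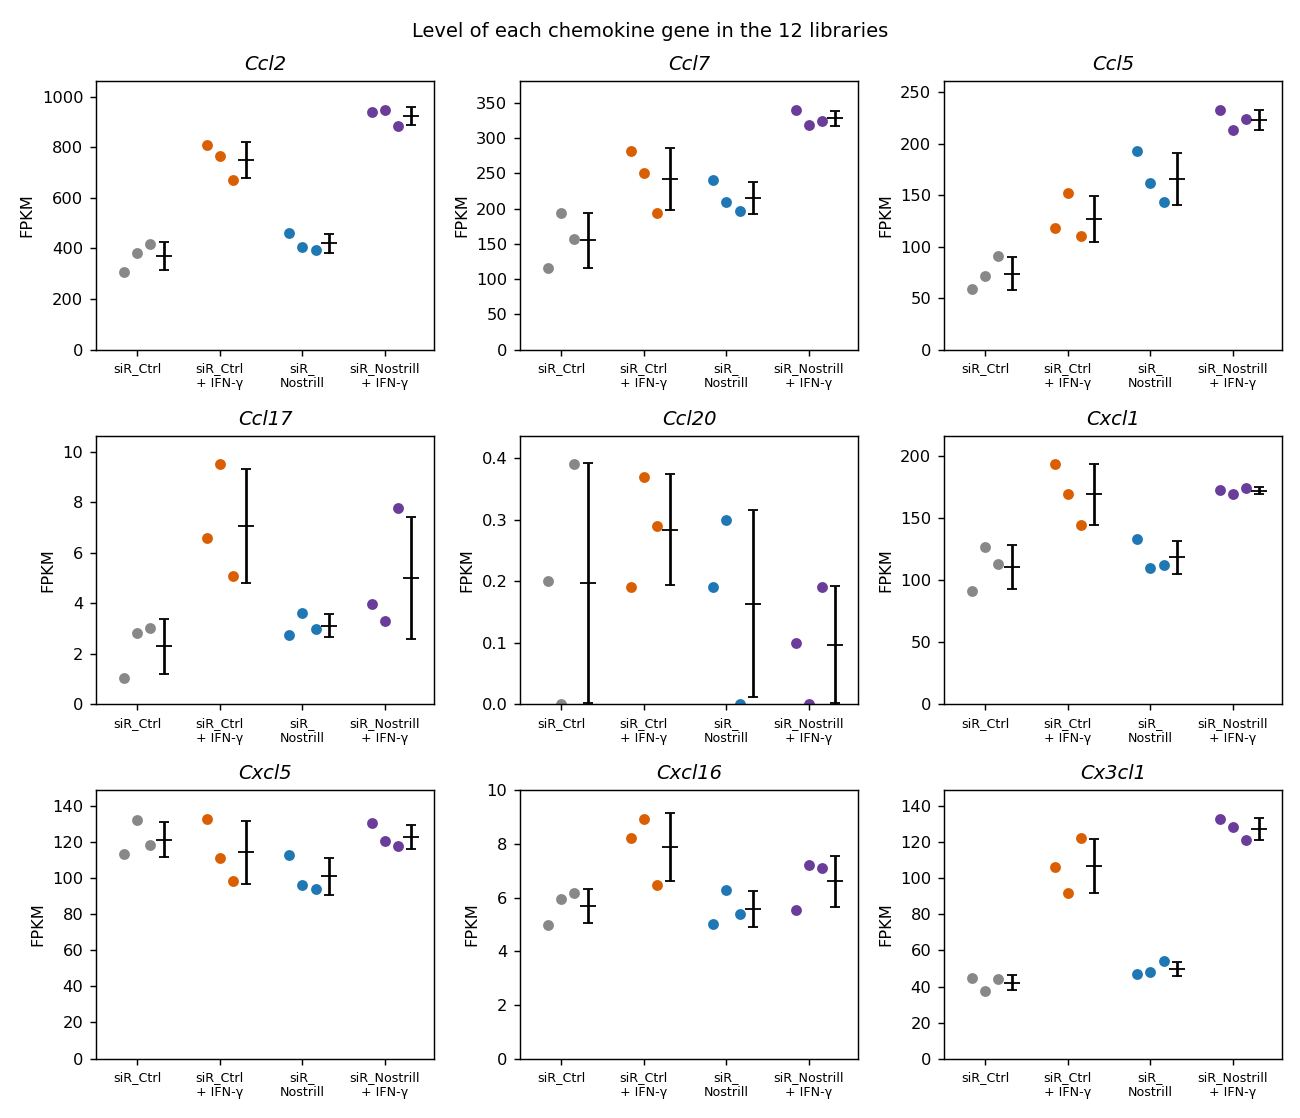
Level of each of the 9 chemokine genes (FPKM, y axis from 0, a scale of its own in each panel) in the 4 groups. Points are libraries in replicate order and bars are the mean ± SD of 3 libraries. Ccl2 and Cx3cl1 lie higher in all libraries with IFN-γ than in all without it for each siRNA, and Ccl5 lies higher with siR_Nostrill in each IFN-γ state.

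Cx3cl1, or fractalkine, is a membrane-anchored chemokine that binds Cx3cr1 on monocytes and T cells and can be shed by Adam10 and Adam17. Its level was 44.6, 37.3 and 44.2 FPKM in siR_Ctrl and 106, 92.2 and 122 FPKM in siR_Ctrl + IFN-γ. In siR_Nostrill it was 46.7, 48.1 and 54.3 FPKM, and in siR_Nostrill + IFN-γ 133, 129 and 121 FPKM. Every library with IFN-γ was above every library without it. The log2 fold change with IFN-γ was 1.41 ± 0.08 (SE) in siR_Ctrl cells, with an adjusted p of 4.27e-07, and 1.34 ± 0.08 in siR_Nostrill cells, with an adjusted p of 6.97e-07. Removing the length trend left these at 1.44 and 1.33, and the call held in all 12 fits that left out a library. The interaction of siR_Nostrill with IFN-γ was -0.07 ± 0.12 for Cx3cl1, with an adjusted p of 0.722.

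Ccl2, which recruits monocytes through Ccr2, was the second member raised with both siRNAs. Its level was 308, 382 and 418 FPKM in siR_Ctrl and 810.1, 766 and 671 FPKM in siR_Ctrl + IFN-γ. It was 462, 407 and 392 FPKM in siR_Nostrill and 938, 948 and 882 FPKM in siR_Nostrill + IFN-γ. The groups with IFN-γ lay wholly above those without it. The log2 fold change was 1.08 ± 0.15 in siR_Ctrl cells, with an adjusted p of 0.000819, and 1.11 ± 0.15 in siR_Nostrill cells, with an adjusted p of 0.000691. Both calls held in all 12 leave-one-out fits. With the length trend removed the values became 0.90 ± 0.12 and 1.39 ± 0.12, and the interaction moved from 0.03 to 0.49 without passing the test, at an adjusted p of 0.171.

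Ccl7 lies beside Ccl2 on chromosome 11 and encodes a further monocyte attractant of the same CC class. In RefSeq coordinates Ccl2 spans chr11:82035577-82037452 and Ccl7 spans chr11:82045712-82047525. Ccl7 measured 115, 193 and 156 FPKM in siR_Ctrl and 282, 249.9 and 194 FPKM in siR_Ctrl + IFN-γ. In siR_Nostrill it measured 240.5, 209.95 and 196 FPKM, and with IFN-γ 340.2, 319 and 325 FPKM. On the FPKM scale the groups with and without IFN-γ did not overlap for either siRNA. In siR_Ctrl cells the closest libraries, at 193 FPKM without and 194 FPKM with IFN-γ, nearly met. In reads those libraries overlapped, at 2040 without and 2039 with IFN-γ. The log2 fold change was 0.70 ± 0.21 in siR_Ctrl cells and 0.58 ± 0.21 in siR_Nostrill cells, with adjusted p of 0.108 and 0.146, so Ccl7 did not pass edgeR's test on the deposited counts. DESeq2 called it in siR_Ctrl cells, at 0.69 ± 0.23 with an adjusted p of 0.0389. Once the length trend was removed it passed in both, at 0.54 ± 0.11 with an adjusted p of 0.00527 and at 0.87 ± 0.11 with an adjusted p of 7.68e-05.

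Ccl17, a ligand of Ccr4 that attracts helper T cells, was read at low depth. Its counts were 6, 15 and 15 reads in siR_Ctrl and 36, 55 and 30 reads in siR_Ctrl + IFN-γ. They were 17, 19 and 17 reads in siR_Nostrill and 22, 23 and 45 reads in siR_Nostrill + IFN-γ. With siR_Ctrl the groups lay apart, whereas on the FPKM scale the siR_Nostrill groups overlapped, at 2.75 to 3.61 FPKM without and 3.28 to 7.77 FPKM with IFN-γ. The log2 fold change of 1.76 ± 0.41 in siR_Ctrl cells passed the test at an adjusted p of 0.0282. The call was lost in 5 of the 12 leave-one-out fits, those without any of the siR_Ctrl replicates or without siR_Ctrl + IFN-γ replicate 1 or 2, with adjusted p up to 0.106, and when only the groups compared were fitted (0.114). In siR_Nostrill cells the value was 0.75 ± 0.40 with an adjusted p of 0.291, and the interaction of -1.01 ± 0.58 had an adjusted p of 0.430, so no difference between the siRNAs was shown for this gene. After removal of the length trend it passed with either siRNA, at 1.52 ± 0.27 and 1.06 ± 0.26, the latter lost without siR_Nostrill + IFN-γ replicate 3 (adjusted p of 0.0686).

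Cxcl1 and Cxcl5 both bind Cxcr2 and attract neutrophils. Cxcl1 measured 91.3, 127 and 113 FPKM in siR_Ctrl and 193, 169 and 144 FPKM in siR_Ctrl + IFN-γ. In siR_Nostrill it measured 133, 109 and 112 FPKM, and with IFN-γ 172, 169 and 174 FPKM. Each IFN-γ group lay above its control group. The log2 fold change was 0.67 ± 0.17 in siR_Ctrl cells, which passed at an adjusted p of 0.0394, and 0.51 ± 0.17 in siR_Nostrill cells, which did not, at 0.0987. The call in siR_Ctrl cells was lost in 9 of 12 leave-one-out fits, all but those without siR_Ctrl replicate 2, siR_Ctrl + IFN-γ replicate 3 or siR_Nostrill replicate 1, with adjusted p up to 0.161, and when only the groups compared were fitted (0.224). A replicate block ended the call in siR_Ctrl cells as well. After removal of the length trend Cxcl1 passed with either siRNA, at 0.52 ± 0.11 and 0.77 ± 0.11.

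Cxcl5 measured 113, 132 and 118 FPKM in siR_Ctrl and 133, 111 and 98.2 FPKM in siR_Ctrl + IFN-γ, ranges that overlapped. In siR_Nostrill it measured 113, 96.2 and 93.7 FPKM, and with IFN-γ 130.15, 120.2 and 117 FPKM, which did not overlap. The log2 fold change was -0.02 ± 0.14 in siR_Ctrl cells with an adjusted p of 0.956, and 0.26 ± 0.14 in siR_Nostrill cells with an adjusted p of 0.289. Cxcl5 was the only tested member whose fitted value with IFN-γ was below 0 in siR_Ctrl cells, and it remained so with the length trend removed, at -0.10 ± 0.10. In siR_Nostrill cells it passed in that fit at 0.41 ± 0.10, with an adjusted p of 0.0107, a call lost without siR_Nostrill replicate 2 or siR_Nostrill + IFN-γ replicate 1 (up to 0.0608). Within a library the FPKM ratio of Cxcl5 to Cxcl1 was 1.04 to 1.24 in siR_Ctrl and 0.657 to 0.688 in siR_Ctrl + IFN-γ. It was 0.836 to 0.880 in siR_Nostrill and 0.674 to 0.756 in siR_Nostrill + IFN-γ, so the balance of these Cxcr2 ligands was lower in each IFN-γ group than in its control group. The deposited row of Cxcl5 gives its position on an alternate scaffold, as does that of Cxcl16.

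Cxcl16, a transmembrane chemokine that binds Cxcr6 on T cells, measured 4.97, 5.95 and 6.16 FPKM in siR_Ctrl and 8.22, 8.94 and 6.47 FPKM in siR_Ctrl + IFN-γ. In siR_Nostrill it measured 5.02, 6.3 and 5.4 FPKM, and with IFN-γ 5.52, 7.22 and 7.1 FPKM. The siR_Ctrl groups lay apart and the siR_Nostrill groups overlapped. The log2 fold changes of 0.54 ± 0.19 and 0.23 ± 0.19 had adjusted p of 0.172 and 0.479. In the fit without the trend they were 0.44 ± 0.12 and 0.40 ± 0.12, and both passed, at 0.0294 and 0.0361, though leaving out a library ended the former call in 5 of 12 fits and the latter in 4 of 12. These were the fits without any siR_Ctrl replicate or siR_Ctrl + IFN-γ replicate 1 or 2 (adjusted p up to 0.0971), and those without siR_Nostrill replicate 1 or 3 or siR_Nostrill + IFN-γ replicate 2 or 3 (up to 0.145).

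Ccl20, which attracts Ccr6-bearing dendritic cells and lymphocytes to the gut epithelium, had at most 4 reads in any library and none in 3 of them. It did not pass the filter on low counts and is the member without an edgeR test on filtered counts. DESeq2 gave it an adjusted p for the interaction only, at 0.753, so a call was not possible in the other comparisons. A small change in Ccl20 was not detectable at this depth.

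Ccl5, or RANTES, attracts T cells and monocytes. It measured 58.9, 71.1 and 90.97 FPKM in siR_Ctrl and 118, 152 and 109.8 FPKM in siR_Ctrl + IFN-γ. In siR_Nostrill it measured 193, 161 and 143 FPKM, and with IFN-γ 233, 213 and 224 FPKM. The siR_Ctrl + IFN-γ and siR_Nostrill groups overlapped, at 127 ± 22.6 and 166 ± 25.3 FPKM (SD, n = 3), and all other pairs of groups lay apart. With IFN-γ the log2 fold change of Ccl5 was 0.85 ± 0.23 in siR_Ctrl cells and 0.40 ± 0.22 in siR_Nostrill cells, with adjusted p of 0.0575 and 0.309. After removal of the trend both passed, at 0.59 ± 0.13 with an adjusted p of 0.00957 and 0.75 ± 0.12 with an adjusted p of 0.000769. The size order of the siRNAs thus turned, and the interaction, -0.45 ± 0.32 and 0.16 ± 0.18 in the respective fits, did not pass in either, at adjusted p of 0.449 and 0.630.

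By number, 4 of 8 tested members (Cx3cl1, Ccl2, Ccl17 and Cxcl1) rose with IFN-γ in siR_Ctrl cells, where 4.71% of the 11900 genes tested were called higher. In siR_Nostrill cells 2 of 8 (Cx3cl1 and Ccl2) rose, against 5.24% of genes called higher. No member fell. DESeq2 called 6 members higher in siR_Ctrl cells, Ccl5 (adjusted p of 0.00819) and Ccl7 besides those 4, against 5.05% of genes, and 3 in siR_Nostrill cells, Cxcl1 (0.0491) besides those 2, against 6.64%. The median log2 fold change over the 8 members was 0.77 and 0.55, beside -0.01 and 0.00 over all genes. With the length trend removed 7 of 8 were called higher in siR_Ctrl cells and 8 of 8 in siR_Nostrill cells, against 8.13% and 11.2% of genes. On the FPKM scale 7 and 6 members, respectively, had IFN-γ groups wholly above their controls, against 7.50% and 16.3% of genes. When only the groups compared were fitted, 2 and 4 members were called, with 341 and 1997 genes. Leaving out a library gave 2 to 6 members with 489 to 589 genes, and 2 to 3 members with 491 to 1138 genes.

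**Figure D3:**
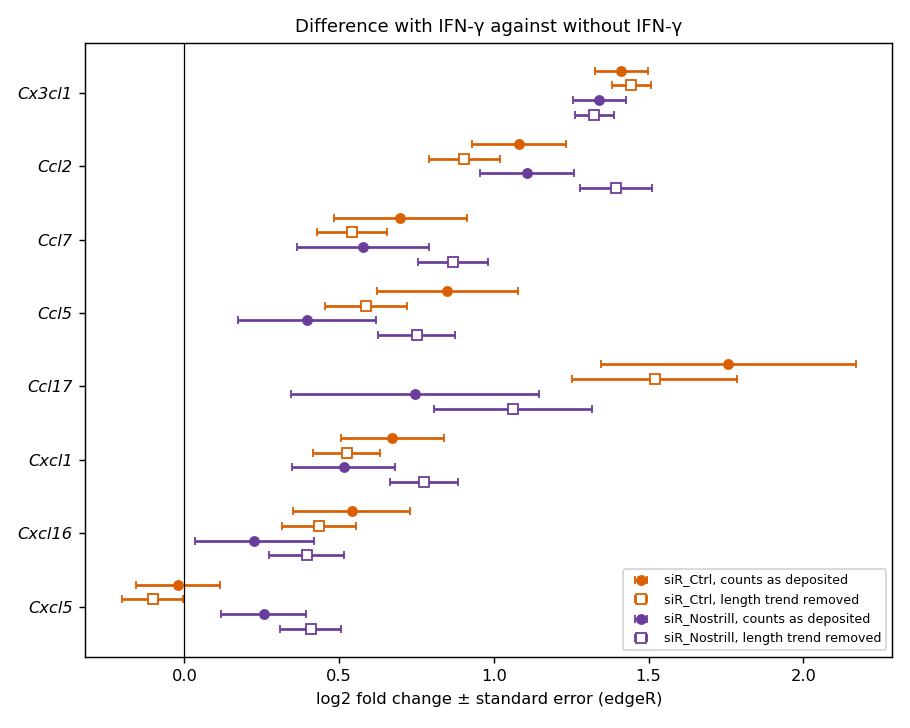
Log2 fold change with IFN-γ against without it (x axis, ± SE, edgeR) for the 8 members tested, in siR_Ctrl cells and in siR_Nostrill cells, each on the counts as deposited (filled circles) and with the length trend removed (open squares). Cx3cl1 lies at 1.33 to 1.44 in every fit, the shorter transcripts move between fits, and Cxcl5 lies on either side of 0.

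The study asked whether Nostrill alters the transcriptional response to IFN-γ, and the siRNA comparisons were made in each state and over both. These comparisons share their libraries with those of IFN-γ. Without IFN-γ no member was called between siR_Nostrill and siR_Ctrl by edgeR, where 0.218% of all genes were, although 3 members and 1643 of 11900 genes had an unadjusted p under 0.05, and DESeq2 called 1, Ccl5, higher, as for 1.19% of genes. With IFN-γ no member was called either, where 0.429% of all genes were, with 2 members and 1730 genes at an unadjusted p under 0.05 and again Ccl5 called higher by DESeq2, as for 2.84% of genes. Averaged over both states Ccl5 rose and was the only member called by edgeR, against 1.16% of genes called higher. DESeq2 called Ccl5 and Cx3cl1 higher there, against 3.41% of genes.

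For Ccl5 the log2 fold change with siR_Nostrill was 1.23 ± 0.23 without IFN-γ and 0.78 ± 0.22 with IFN-γ, with adjusted p of 0.0693 and 0.130. All 3 siR_Nostrill libraries exceeded all 3 siR_Ctrl libraries in each state. Averaged over both states the value was 1.005 ± 0.16 with an adjusted p of 0.0110. It kept its call in all 12 leave-one-out fits, between 0.91 and 1.13, and under all 9 alternatives fitted for this comparison. Ccl5 also passed in each state once the length trend was removed, at 0.80 ± 0.13 with an adjusted p of 0.00466 and 0.97 ± 0.13 with an adjusted p of 0.000733. At the length of Ccl5 the trend itself differed between the siRNAs by 0.43 without IFN-γ and by -0.15 with it.

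The ratio of a pair of genes within a library needs no library size, and it was taken for Ccl5 against Ccl2. The FPKM ratio of Ccl5 to Ccl2 was 0.191, 0.186 and 0.218 in siR_Ctrl and 0.418, 0.396 and 0.365 in siR_Nostrill. With IFN-γ it was 0.145, 0.199 and 0.164 in siR_Ctrl and 0.248, 0.225 and 0.254 in siR_Nostrill. In each state every siR_Nostrill library was above every siR_Ctrl library. The ratio of Ccl7 to Ccl2, genes of nearly equal length, was 0.374 to 0.506 in siR_Ctrl and 0.501 to 0.520 in siR_Nostrill, which overlapped, and 0.290 to 0.349 and 0.336 to 0.368 with IFN-γ, which overlapped as well. Ccl5 made up 7.47% to 9.57% of the summed FPKM of the 9 members in siR_Ctrl and 14.3% to 16.1% in siR_Nostrill, and with IFN-γ 7.10% to 9.76% and 11.2% to 12.03%.

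**Figure D4:**
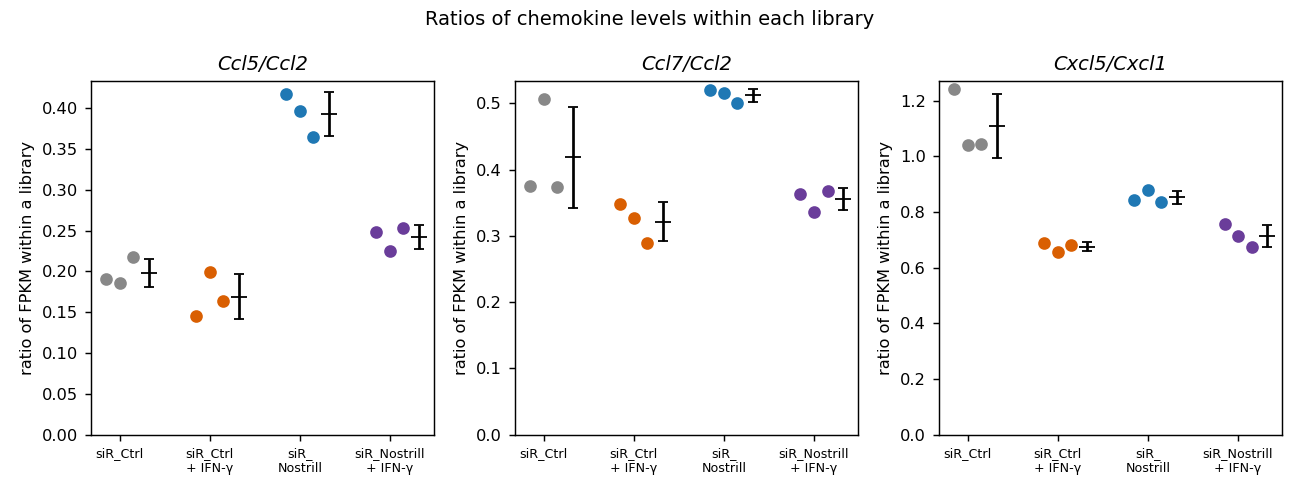
Ratio of the FPKM of 2 chemokine genes within each library (y axis from 0) for Ccl5 to Ccl2, Ccl7 to Ccl2 and Cxcl5 to Cxcl1 in the 4 groups, with points for libraries and bars for the mean ± SD of 3. Ccl5 to Ccl2 lies at 0.365 to 0.418 in siR_Nostrill against 0.186 to 0.218 in siR_Ctrl, and Cxcl5 to Cxcl1 is lower in each IFN-γ group than in its control group.

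The other monocyte attractants gave smaller values. On the FPKM scale Ccl7 was higher in all siR_Nostrill libraries than in all siR_Ctrl libraries in each state. Without IFN-γ the closest libraries, siR_Ctrl replicate 2 and siR_Nostrill replicate 3, nearly met, at 193 and 196 FPKM. In reads they overlapped, at 2040 and 2033. The log2 fold changes of Ccl7 were 0.51 ± 0.21 without IFN-γ and 0.39 ± 0.21 with it, at adjusted p of 0.349 and 0.438. Ccl2 gave 0.23 ± 0.15 without IFN-γ and 0.25 ± 0.15 with it, at adjusted p of 0.432 and 0.481. Once the length trend was removed neither gene was called without IFN-γ, where Ccl2 turned to -0.11 ± 0.12, while with IFN-γ both were, at 0.38 ± 0.11 for Ccl2 with an adjusted p of 0.0426 and 0.53 ± 0.11 for Ccl7 with an adjusted p of 0.00943. The Ccl2 call was lost in 5 of 12 leave-one-out fits, with an adjusted p up to 0.152, those without siR_Ctrl replicate 3, siR_Ctrl + IFN-γ replicate 2, siR_Nostrill replicate 1 or siR_Nostrill + IFN-γ replicate 1 or 2.

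Cx3cl1 differed by 0.20 ± 0.08 with IFN-γ and by 0.23 ± 0.06 averaged over both states, at adjusted p of 0.296 and 0.0667. DESeq2 called the averaged difference on the same counts, at 0.24 ± 0.06 with an adjusted p of 0.00470. Without the trend the averaged value was 0.24 ± 0.04 with an adjusted p of 0.00304, called in all 12 leave-one-out fits. Without IFN-γ, where every siR_Nostrill library exceeded every siR_Ctrl library, it was 0.30 ± 0.06 with an adjusted p of 0.0186 in that fit, a call lost without siR_Ctrl replicate 1 or 2 or siR_Nostrill replicate 2 or 3 (up to 0.0749). On the TPM scale, which sets each library to an equal sum, the value of Cx3cl1 without IFN-γ was 0.09 with an adjusted p of 0.795 (limma).

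The neutrophil attractants and the low members showed no call on the deposited counts. On the FPKM scale Cxcl5 was lower in all siR_Nostrill than in all siR_Ctrl libraries without IFN-γ. The closest, replicate 1 of each group, nearly met at 112.5 and 113.4 FPKM. In reads they overlapped, at 2880 in siR_Nostrill and 2862 in siR_Ctrl. Once the length trend was removed, the log2 fold change of Cxcl5 without IFN-γ was -0.40 ± 0.10 with an adjusted p of 0.0440. That call was lost in 7 of 12 leave-one-out fits (up to 0.183). These were the fits without any siR_Ctrl replicate or without replicate 2 or 3 of siR_Nostrill or of siR_Nostrill + IFN-γ. Cxcl1 gave -0.03 ± 0.17, Cxcl16 -0.32 ± 0.19 and Ccl17 -0.44 ± 0.36 with IFN-γ, at adjusted p of 0.963, 0.479 and 0.632. Without IFN-γ the respective values were 0.13 ± 0.17, -0.001 ± 0.193 and 0.58 ± 0.46, at adjusted p of 0.645, 0.997 and 0.482. By number, with the length trend removed, 3 of 8 members were called in each state, against 3.46% of genes in either direction without IFN-γ and 6.19% called higher with it. Over both states 3 of 8 were called higher, against 6.64%.

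**Figure D5:**
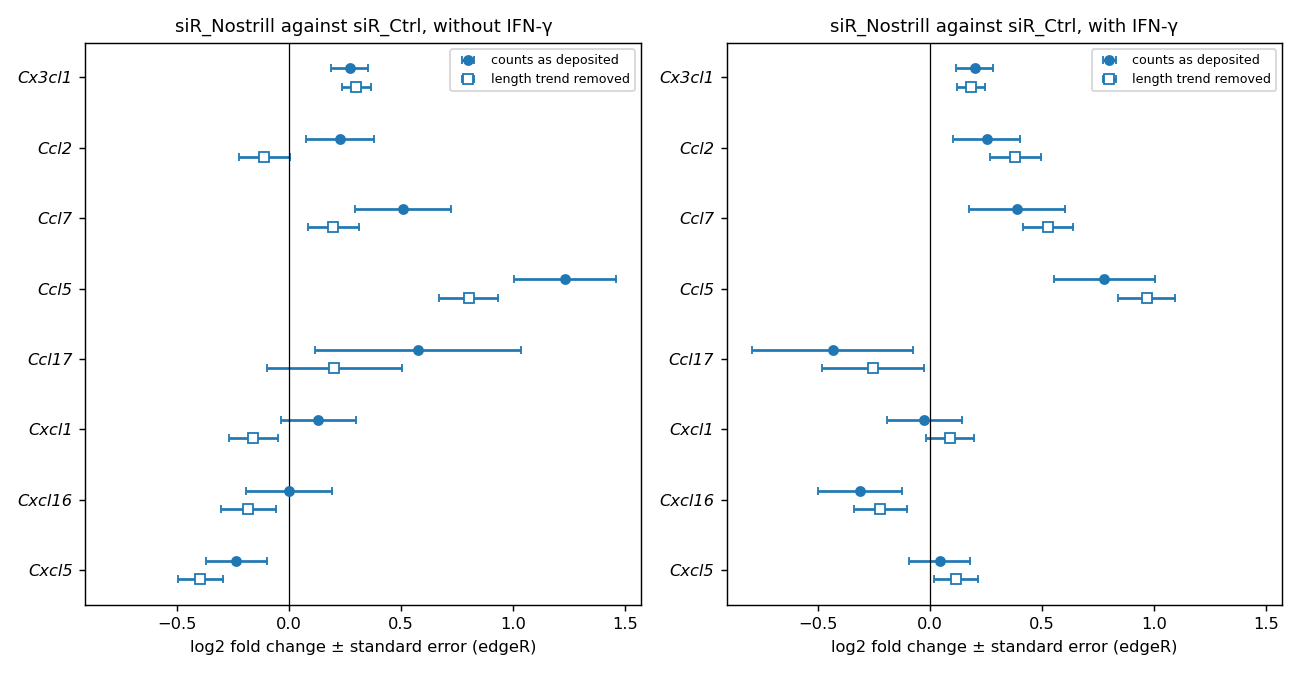
Log2 fold change of siR_Nostrill against siR_Ctrl (x axis, ± SE, edgeR) for the 8 members tested, without IFN-γ at left and with IFN-γ at right, on the counts as deposited (filled circles) and with the length trend removed (open squares). Ccl5 lies highest in both panels, at 0.78 to 1.23, and Ccl2 and Cxcl1 lie above 0 on the counts as deposited and below it with the length trend removed, without IFN-γ.

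The interaction of siR_Nostrill and IFN-γ, which tests whether the response differs between the siRNAs, was called for no member by edgeR or DESeq2 on the deposited counts, as for 0.00% of all genes by edgeR. None of the 8 members had an unadjusted p under 0.05, against 1277 of 11900 genes. The values ran from -1.01 ± 0.58 for Ccl17 to 0.28 ± 0.19 for Cxcl5. After removal of the length trend Cxcl5 and Ccl2 had an unadjusted p under 0.05, with values of 0.51 ± 0.14 and 0.49 ± 0.16 and adjusted p of 0.144 and 0.171, where 2256 of 11900 genes were under 0.05 unadjusted. With a replicate block added to that fit Cxcl5 was called, at 0.52 ± 0.09 with an adjusted p of 0.0270, among 246 genes. The other fits of all 12 libraries called no gene in the interaction. Same-numbered samples did not stand out as pairs. Their deviations from the group means correlated at -0.49 to 0.73, and those of other pairs at -0.81 to 0.77.

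Promoter sequences, 250 bases before to 50 bases after an annotated start, were available from RefSeq (GRCm38.p6) for 4 of the 9 members. They are shown for the 3 of them that were called with IFN-γ. Both strands were searched for the GAS element (TTCNNNGAA), found in promoters that respond to IFN-γ, the core of the interferon-stimulated response element, the AP-1 site (TGANTCA) and the NF-κB consensus. Capitals mark each match, written 5′ to 3′ on the strand of the gene, which is the plus strand in all 3. The windows are chr8:94771930-94772229 for Cx3cl1, chr8:94810203-94810502 for Ccl17 and chr5:90890995-90891294 for Cxcl1.
Cx3cl1: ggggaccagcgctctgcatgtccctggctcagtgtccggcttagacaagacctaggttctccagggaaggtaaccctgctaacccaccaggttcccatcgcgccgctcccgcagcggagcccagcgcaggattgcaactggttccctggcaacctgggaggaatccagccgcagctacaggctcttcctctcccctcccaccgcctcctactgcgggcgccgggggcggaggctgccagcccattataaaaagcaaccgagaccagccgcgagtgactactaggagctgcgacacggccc
Ccl17: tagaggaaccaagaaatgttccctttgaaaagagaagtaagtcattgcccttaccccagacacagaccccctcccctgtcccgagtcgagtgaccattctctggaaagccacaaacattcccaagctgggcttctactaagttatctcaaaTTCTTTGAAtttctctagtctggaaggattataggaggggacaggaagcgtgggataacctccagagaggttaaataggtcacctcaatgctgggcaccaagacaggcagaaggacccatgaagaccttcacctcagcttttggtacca
Cxcl1: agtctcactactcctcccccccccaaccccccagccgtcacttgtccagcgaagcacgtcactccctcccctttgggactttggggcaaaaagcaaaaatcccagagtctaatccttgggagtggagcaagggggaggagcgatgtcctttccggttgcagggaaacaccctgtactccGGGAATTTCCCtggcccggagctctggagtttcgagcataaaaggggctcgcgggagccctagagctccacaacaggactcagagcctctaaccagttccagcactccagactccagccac
The window of Cx3cl1 held no match. That of Ccl17 held a GAS match from -99 to -91, a motif found in 8.30% of 32851 promoters of the same length. The RefSeq span of the Ccl17 gene starts at chr8:94809380, before this window, so the window lies around a later start. The promoter of Cxcl1 held overlapping NF-κB matches on the gene strand from -71 to -62 and on the opposite strand from -70 to -61, and 8.46% of promoters held a match. The promoter of Ccl20, not printed, also held an NF-κB match, from -80 to -71 on the opposite strand. The ISRE core and AP-1 letters, present in 3.44% and 7.81% of promoters, were in none of the 4 windows. A match describes letters only, and binding was not measured here.

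The genes whose pattern over the 12 libraries was nearest to each member were taken by Pearson's r of log2 CPM, a description in which the points share the IFN-γ groups and the length trend. For Cx3cl1 they were Parp3, Ifi203 and B4galt1, each at r of 0.995 or 0.996. For Ccl2 they were Ly6e, Litaf and Il15, at 0.984 and 0.980. For Ccl5 they were Syngr2, C1qtnf6 and Abhd14b, at 0.968, 0.965 and 0.958. For Ccl7 they were Ociad1, Lcat and Car11 at 0.952 to 0.974, and for Ccl17 Itm2b, Slc25a28 and Isg20 at 0.957 to 0.985. For Cxcl1 they were Steap1, Pdpn and Kars at 0.962 to 0.971, and for Cxcl16 Nnmt, Ilk and Mettl6 at 0.948 to 0.956. Cxcl5 had the weakest partners, Aar2, Prl2c2 and Id3, at 0.877 to 0.885. Between members, r was highest for Ccl2 with Cxcl1 at 0.939 and lowest for Ccl5 with Cxcl5 at 0.0895.

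The rest of the chemokine system was taken from lists of genes. Of 26 other chemokines 10 had a row and 6 were tested. On the deposited counts only Ccl8, a monocyte attractant, was called, higher with IFN-γ in siR_Ctrl cells, where 4.71% of genes were. Its level was 3.52 ± 1.61 FPKM against 0.533 ± 0.1002 (SD, n = 3), with an adjusted p of 0.0289. Ccl8 had only 2 to 3 reads per library in siR_Ctrl and 12 to 29 in siR_Ctrl + IFN-γ. It passed the filter on low counts through the IFN-γ groups, so its call cannot be compared with that share. With the length trend removed 1 of the 6 was called higher with each siRNA, against 8.13% and 11.2% of genes. Cxcl12, the ligand of Cxcr4, was the most abundant of them at 112 ± 7.22 FPKM in siR_Ctrl and was called in no comparison. The Cxcr3 ligands Cxcl9 and Cxcl10 both rose with IFN-γ for each siRNA. In siR_Ctrl cells Cxcl10 went from 29.97 ± 6.11 to 736 ± 40.0 FPKM, and Cxcl9 from 0.00667 ± 0.0115 to 11.2 ± 1.71. Cxcl10 was also higher with siR_Nostrill averaged over both states, by 0.52 ± 0.10 with an adjusted p of 0.0251.

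Of 22 receptor genes 9 had a row and 3 were tested. Among those 9 only Ackr3 reached a mean of 1 FPKM over all 12 libraries. Ackr3, an atypical receptor that takes up Cxcl12, rose with IFN-γ from 39.6 ± 0.265 to 51.1 ± 2.48 FPKM in siR_Ctrl cells and from 40.3 ± 3.38 to 56.7 ± 3.13 in siR_Nostrill cells. Ccrl2, a chemerin-binding relative of these receptors, rose from 0.117 ± 0.0961 to 0.953 ± 0.0961 FPKM and from 0.143 ± 0.0945 to 1.15 ± 0.103. Both genes were called higher with each siRNA. Ccrl2 had 1 to 7 reads per library in siR_Ctrl and 26 to 34 in siR_Ctrl + IFN-γ. It had 2 to 7 in siR_Nostrill and 36 to 40 in siR_Nostrill + IFN-γ. Ccrl2 therefore passed the filter on low counts only through the IFN-γ groups. For that reason the 2 of 3 called cannot be compared with the 4.71% and 5.24% of all genes called higher. None of the receptors was called between the siRNAs, where on the deposited counts 0.218% of genes were without IFN-γ and 0.429% with it.

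Of 14 NF-κB subunits and inhibitors 2 rose with IFN-γ in siR_Ctrl cells and 3 in siR_Nostrill cells, and none fell, beside the 4.71% and 5.24% of all genes called higher. With the length trend removed 6 rose with each siRNA, beside 8.13% and 11.2%. Bcl3, a nuclear IκB protein, rose by a log2 fold change of 1.55 ± 0.12 and 1.44 ± 0.12, and Nfkbiz, a second nuclear IκB protein, by 0.92 ± 0.12 and 1.20 ± 0.12. Nfkb1 passed in siR_Nostrill cells, at 0.57 ± 0.15 with an adjusted p of 0.0493. No gene of the list was called between the siRNAs on the deposited counts, whereas with the length trend removed 1 was lower with IFN-γ, and 2 were higher and 2 lower averaged over both states, where 1545 and 1616 of 11900 genes were called in either direction. Of 7 factors that govern the decay of chemokine mRNAs, Zfp36, which binds AU-rich elements, rose by 2.69 ± 0.11 and 2.76 ± 0.11. Zc3h12a, an RNase, rose by 0.54 ± 0.11 in siR_Ctrl cells, and Zfp36l2, a relative of Zfp36, by 0.62 ± 0.09 in siR_Nostrill cells. Once the length trend was removed, 3 of the 7 were called higher with IFN-γ for each siRNA, against 8.13% and 11.2% of genes. Hnrnpd, an AU-rich element binding protein, fell by 0.28 with IFN-γ in siR_Nostrill cells and by 0.24 with siR_Nostrill averaged over both states, with an adjusted p of 0.0351 and 0.0383, and neither call was made once the length trend was removed. Of 5 tested proteases that process chemokines, among them Adam10 and Adam17, none was called in any comparison on the deposited counts. With the length trend removed 1 was called higher with siR_Nostrill averaged over both states, against 6.64% of genes.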

How the data were processed

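RNA of 12 libraries was sequenced by BGI Americas on the DNBSEQ platform as 100 bp paired reads. Per the labels and methods, the reads were aligned to GRCm38.p6 (mm10) with HISAT2 and Bowtie2. No source used here names the counting tool. The deposited tables give an expected count, an FPKM and a TPM value per gene. Expected counts, about 91% of them exactly whole in each library (no tolerance) and all so for the 9 members, were rounded. FPKM describes levels and TPM serves as an alternative scale.

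Groups came from the labels. Counts were analysed with edgeR 4.0.16 in R 4.3.3 (quasi-likelihood test, TMM, filterByExpr at its defaults, 1 fit of all 12 libraries, Benjamini-Hochberg adjustment over 11900 genes, threshold 0.05). Adjusted p-values in the text are from this test unless another tool is named. The length trend was a lowess curve (span 0.3) of log2 CPM against effective length per library, entered as an offset (11390 genes had a length). Intervals given as ± are SE for fold changes and SD for levels. Alternatives were DESeq2 1.42.0, its size factors in edgeR, no filter, only the groups compared, a replicate block, limma 3.58.1 on log2(FPKM + 1), log2(FPKM + 0.1) and, chosen after seeing the data, log2(TPM + 1) (genes with a mean of at least 0.5 FPKM), and leaving out each library. The code was tested on simulated data. The members, gene lists and motifs were chosen with earlier results of these data known. Named genes were all 9 members, the 3 nearest genes of each tested member and list genes called at least once. Some genes of these lists are not reported here.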

Additional observations from a re-analysis of the deposited data

How the results depend on the processing

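No value changed direction while called. Of the values other than those that left out a library 399 kept their side of the threshold, 60 passed it only under an alternative and 3 lost it, and with a library left out the numbers were 557, 5 and 14. In the order IFN-γ in siR_Ctrl, IFN-γ in siR_Nostrill, siR_Nostrill without IFN-γ, with IFN-γ and averaged, edgeR called 4, 2, 0, 0 and 1 members and 649, 807, 26, 51 and 257 genes. With the length trend removed it called 7, 8, 3, 3 and 3 members and 1322, 2259, 412, 1545 and 1616 genes. DESeq2 called 6, 3, 1, 1 and 2 members, and 1330, 257, 601 and 782 genes from the second comparison on. With only the groups compared, 2 and 4 members and 341, 1997, 0 and 0 genes were called, and this fit gives no other value for the averaged comparison or the interaction. Without the filter 30 and 168 genes were called in the comparisons with IFN-γ and averaged. Limma on either FPKM scale called 1 member in each single siRNA comparison, with 20 and 21 genes without and 135 and 114 with IFN-γ. On the TPM scale, which moved the median of all genes by -0.15, 0.14, -0.15 and 0.12 in the first 4 comparisons, limma called 6, 5, 1, 1 and 2 members and 318, 595, 8, 65 and 113 genes. The cause of these differences was not tested.

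Same-numbered samples did not stand out as pairs. In 18 same-numbered pairs the correlation of deviations from the group means ran from -0.49 to 0.73 with 8 above 0.1. In 36 differently numbered pairs it ran from -0.81 to 0.77 with 14 above 0.1. These deviations hold the length trend, so a batch shared by replicate number was not excluded. A replicate block called 32 genes with IFN-γ and ended the call of Cxcl1 with IFN-γ in siR_Ctrl. The replicate block with the length trend removed called 7, 8, 3, 4 and 3 members and 1443, 2669, 555, 1897 and 1882 genes, and in the interaction 1 member, Cxcl5, and 246 genes, where the other fits of all 12 libraries called none.

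Leaving out each library in turn, between 2 and 6, 2 and 3, 0 and 1, 0 and 0, and 1 and 1 members were called, with 489 to 589, 491 to 1138, 0 to 37, 0 to 72 and 83 to 254 genes. With the length trend removed as well, chosen after seeing the data, the member counts were 6 to 7, 6 to 8, 1 to 3, 2 to 4 and 3 to 3, with 1027 to 1295, 1298 to 2618, 150 to 583, 645 to 1807 and 1071 to 1727 genes. In the comparison without IFN-γ only Ccl5 was called when siR_Ctrl replicate 1 or 2 or siR_Nostrill replicate 2 or 3 was absent. Depth limited Ccl20 (at most 4 reads) and Ccl17 (6 to 55 reads).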
